A study of Mus musculus with 43 samples.

Results

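Lungs of mice given house dust mite for 19 weeks together with antibodies against both IL-33 and the IL-4 receptor alpha chain were compared with lungs of mice given saline. The comparison used 10 of the 43 whole-lung libraries of the series: the 5 whose labels name both antibodies with 19 weeks of mite extract, and the 5 whose labels name saline and no antibody. Each was matched to its column of the count table by its library number. The combination mice were replicates 1, 2, 3, 5 and 8 of their group and the saline mice were replicates 1 to 5. A further group, 7 mite-exposed mice given an isotype control antibody at the same 19 weeks, shows the level that each gene had under mite without blockade. Values near the end also come from 6 mice given anti-IL-33 plus isotype and 7 given anti-IL-4Ra plus isotype, at 19 weeks of mite. Mite-exposed mice without antibody, 6 at 11 weeks and 7 at 19 weeks, appear there too. The animals were females on a mixed 129S6/C57BL/6 background, with an age given as 8 to 12 weeks. For mice given mite for 19 weeks this cannot be the age at which the lungs were taken. For antibody testing, mice carried human sequence for IL-33, IL-4 and the outer part of IL-4Rα. The antibodies, itepekimab (anti-IL-33) and dupilumab (anti-IL-4Ra), recognise human proteins. The labels do not say separately whether the saline mice carried these alleles, for how long saline was given or at which of the study's start times these antibodies began. Mite extract was given intranasally 3 times a week.

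House dust mite is an airway allergen that carries proteases and microbial products. Damaged epithelium releases IL-33, which acts through ST2 (Il1rl1) on innate lymphoid cells, mast cells and T helper cells, and these make IL-5 and IL-13. IL-4 and IL-13 both signal through the IL-4 receptor alpha chain and the transcription factor STAT6, which switches on eotaxins, goblet cell genes and the alternatively activated state of macrophages. Mite also evokes responses outside this axis, among them IL-17 and neutrophil-attracting chemokines, antibody-secreting plasma cells and macrophages that clear lipid and debris.

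Total expected counts, in units of M (1e+06), were 15.3 to 19.6 per combination library and 14.0 to 23.3 per saline library, and all values below are CPM (counts per 1e+06 reads) scaled by TMM. The lung markers Sftpc, Sftpb, Ager and Scgb1a1 were abundant in every library of both groups. The libraries of a group differed from each other by more than sampling noise, and none looked like a repeat of another. In 2 respects the libraries set limits on the comparison. First, the GC slope, which is the change in log2 expression per 10 percentage points of transcript GC content relative to the mean library, was 0.96, -0.94, -0.14, 0.81 and 0.91 in the combination libraries and -0.80, -0.64, -0.33, -0.62 and -0.57 in the saline libraries. The means differed by 0.91 (exact two-sided permutation test, p = 0.0714, where the smallest p that 5 against 5 allows is 0.00794). Combination replicates 1, 3, 5 and 8 lay above every saline library, whereas replicate 2 lay below all of them. The labels give no batch or run order. Second, saline replicate 3 carried marker RNA of other tissues: its squamous epithelium markers summed to 12958 CPM against 5.12 to 7.87 CPM in the other saline libraries and 2.83 to 97.5 CPM in the combination libraries. Its adipose markers summed to 1531 CPM, and combination replicates 1 and 8 also held adipose RNA, at 823 and 764 CPM, where the 7 isotype libraries had 57.1 to 86.3 CPM. Erythroid markers summed to 21613, 580.1, 2006, 2517 and 11841 CPM in the combination libraries and 2155 to 5794 CPM in the saline libraries.

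**Figure D1:**
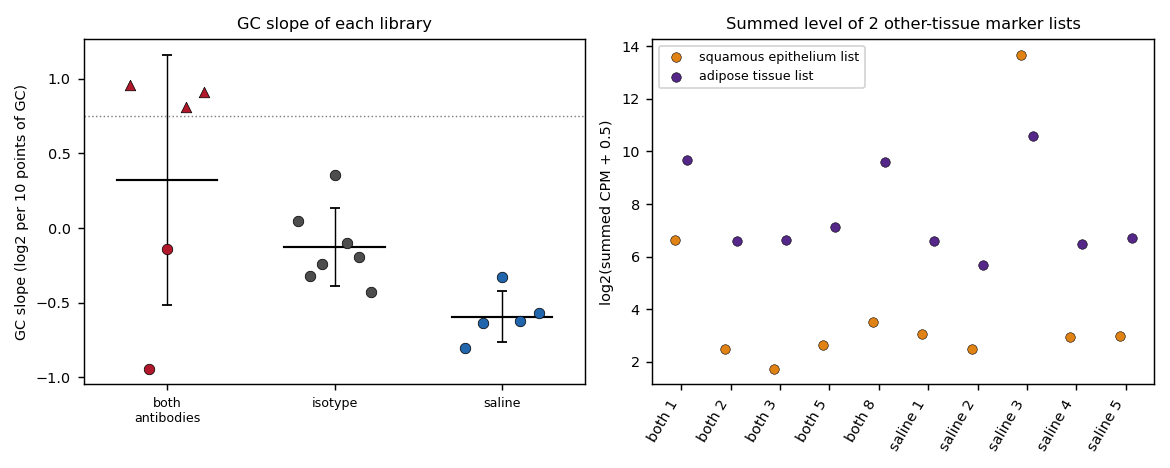
Left, GC slope (log2 per 10 percentage points of GC) of each library in the combination, isotype and saline groups, with the group mean and SD; triangles mark slopes above 0.75 (dotted line), which 3 of 5 combination libraries and 0 of 5 saline libraries pass. Right, summed CPM of the squamous epithelium and adipose tissue marker lists, as log2(sum + 0.5), in each combination ("both") and saline library; saline replicate 3 stands at 12958 CPM for the squamous list.

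Of 15979 genes tested, 4441 (27.8%) were higher and 3240 (20.3%) were lower in combination than in saline lungs at an adjusted p under 0.05 (edgeR quasi-likelihood test, Benjamini-Hochberg adjustment). Unless another group is named, a log2 fold change is combination over saline, given with its SE. CPM did not overlap between the 5 combination and 5 saline libraries for 1289 genes that were higher (8.07%) and 1444 that were lower (9.04%). The counts depended on how the GC slope was treated. With the slope as a covariate, 1853 genes (11.6%) passed upward and 1863 (11.7%) downward. Of these, 1469 and 1329 were also called without it. With offsets for GC and transcript length instead, 3759 genes were higher and 3262 lower. Over all libraries the slope had a Pearson correlation of 0.962 in size with the first principal component, which held 43.9% of the variance. The covariate therefore also takes out whatever else varied along that component, and what that is was not tested. Without the libraries of slope above 0.75, which leaves combination replicates 2 and 3 only, 1622 (9.87%) were higher and 985 (5.99%) lower. Without saline replicate 3 the counts were 4506 (28.1%) and 3109 (19.4%), and without it and the steep libraries 1693 (10.4%) and 1234 (7.56%). Leaving out combination replicate 1 gave 2953 higher and 1901 lower, leaving out replicate 2 gave 5005 and 5013, and leaving out replicate 8 gave 3555 and 2036. The median transcript GC was 55.3% for the genes that were higher and 46.8% for those that were lower, against 49.8% for all genes tested; with the covariate it was 50.7% and 49.6%. Counts under the covariate, without the steep libraries or without saline replicate 3 therefore stand beside most gene groups below. Isotype libraries, none of which had a slope above 0.75, had 2073 genes higher (13.0%) and 1977 lower (12.4%) than saline. Which of the 2 groups had more calls against saline changed with the fit. Without the steep libraries isotype had 7916 calls, beside the 1622 and 985 of combination. With only the groups compared isotype had 8078 calls, and combination had 3185 higher and 1660 lower. Combination had 2019 genes higher (12.6%) and 1010 lower (6.32%) than isotype. The comparisons with saline and with isotype share libraries, so their values are set side by side below and are not independent of each other.

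The comparison with isotype rested on few libraries. Its 3029 calls in both directions fell to 207 without combination replicate 1, 468 without replicate 8, 489 without the steep libraries and 551 with the replicate number as a block. They were 4883 without combination replicate 3 and 7899 without replicate 2. Of 41 genes given below as higher or lower than in isotype, 11 passed in each of these fits, in the other fits that left out 1 combination or saline library, without saline replicate 3 and the steep libraries, and with the GC covariate. These were Arg1, Ccl11, Ccl6, Fabp1, Fga, Il13ra2, Msx3, Orm2, Plet1, Retnla and Thbs1. The other 30 lost the call in at least 1 of these fits, and none of the 41 changed sign in any of them. Without combination replicate 1 the call was lost for 25 genes (adjusted p = 0.0505 to 0.187), and without replicate 8 for 20 (adjusted p = 0.0501 to 0.221). Without the steep libraries it was lost for 27 (adjusted p = 0.0537 to 0.796). Slc26a4, Pdcd1lg2 and Cyp2f2 passed with any 1 library left out and did not pass without the steep libraries. F13a1 and Scgb3a2 lost the call through replicate 8, and Ccl9, Ccn2, Mmp12, Tnc, Orm1 and Fgg through replicate 1. The rest lost it with more than 1 library: Agr2, Ccl17, Il1rl1, Cd209e, Cxcl2, Ctsk, Fn1, Scgb1a1 and Scgb3a1 through replicates 1 and 8, and Ccl22, Ccl24, Chil4, Clca1, Dmbt1, Lcn2, Muc5b, Ncr1, Npy and Timp1 through these or others.

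**Figure D2:**
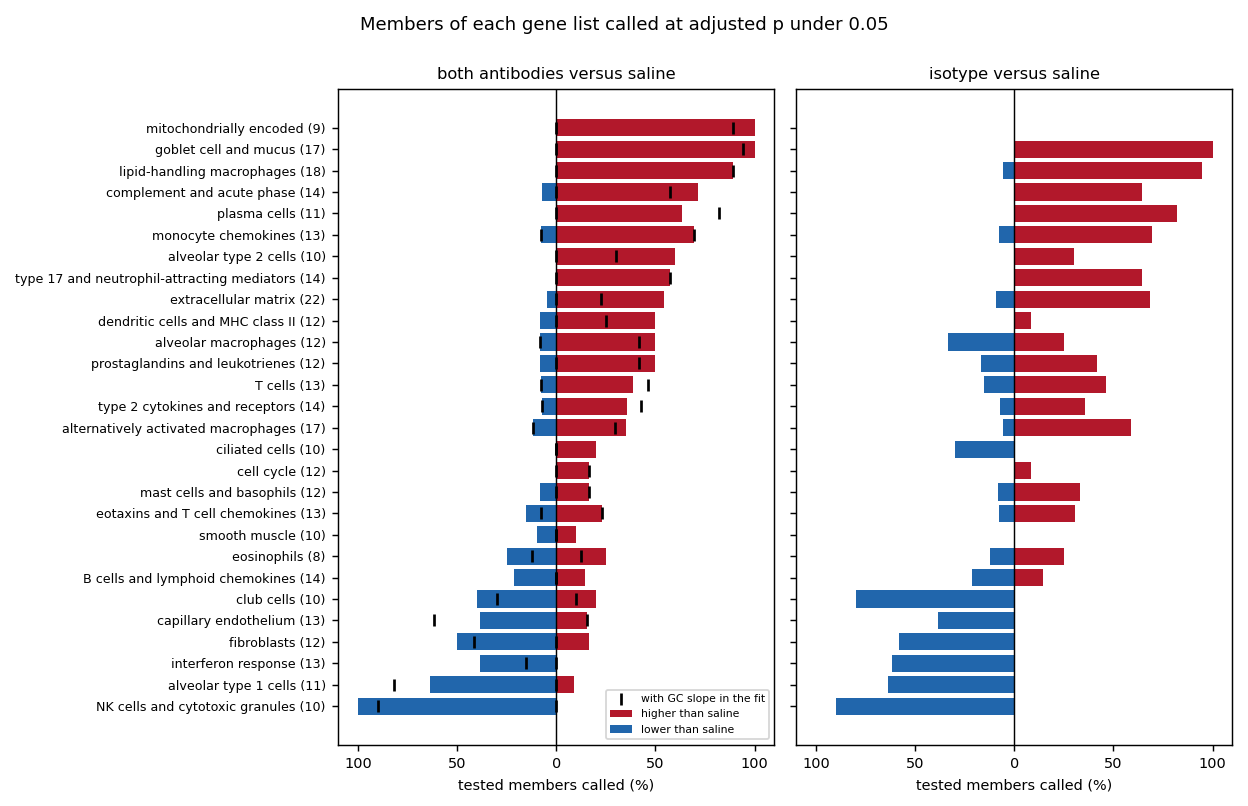
Share of the tested members (number in brackets) of each gene list called higher (red, right) or lower (blue, left) than saline, in percent, for combination (left panel) and isotype (right panel). Black ticks give the combination count with the GC slope in the fit. The goblet cell list stands at 17 of 17 higher and the NK cell list at 10 of 10 lower in combination lungs. Over all genes 27.8% were higher and 20.3% lower in combination lungs, and 13.0% and 12.4% in isotype lungs.

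Goblet cell and mucus genes were above saline under both antibodies. Of 17 genes listed 17 had enough reads to test, and all 17 were higher in combination than in saline lungs, with a median log2 fold change of 3.78 against 0.01 for all genes, and 16 of them had no overlap between the groups. With the GC covariate the count was 16, and 12 without the steep libraries. Over all genes 27.8% were higher, and 8.07% were higher without overlap. With the covariate 11.6% of all genes were higher, and 9.87% without the steep libraries. In isotype lungs all 17 were higher than in saline, where 13.0% of all genes were. Pigr, the receptor that carries IgA across the epithelium, had 299, 1775, 1019.8, 372 and 359.8 CPM in combination lungs and 79.3, 60.9, 41.8, 57 and 41.6 CPM in saline lungs. Pigr had a log2 fold change of 3.77 ± 0.48 SE (adjusted p = 2.77e-07). The lowest combination value was more than every saline value, and isotype lungs had 451 to 1063 CPM (median 721). Muc5b, a gel-forming mucin, had 515, 316, 157, 378 and 464 CPM in combination lungs and 47.9, 16.7, 8.43, 51.4 and 10.2 CPM in saline lungs (log2 fold change 3.77 ± 0.54 SE, adjusted p = 1.98e-06), again with no overlap, and was also higher than in isotype lungs (log2 1.26, 95% interval 0.37 to 2.15, adjusted p = 0.0435). That difference from isotype was not called with the GC covariate, at 0.88 (adjusted p = 0.0977). Dmbt1, a mucosal scavenger glycoprotein, had 33.5, 21.2, 35.9, 30.8 and 33.1 CPM in combination lungs and 1.73, 0.22, 0, 0.117 and 0.033 CPM in saline lungs. Dmbt1 had a log2 fold change of 6.26 ± 0.74 SE (adjusted p = 5.07e-08), and also lay above every isotype library (log2 1.58, 95% interval 0.52 to 2.63, adjusted p = 0.0365); without saline replicate 1, its highest saline library, the value was 8.43 (adjusted p = 1.63e-10). Itln1, a lectin secreted by goblet cells, had 19.1, 5.59, 15.9, 12 and 24.1 CPM in combination lungs and 0.48, 0, 0.276, 0.117 and 0.66 CPM in saline lungs. Itln1 had a log2 fold change of 5.57 ± 0.70 SE (adjusted p = 2.11e-07).

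Slc26a4 and Clca1 lay between isotype and saline. Slc26a4, the anion exchanger pendrin, which IL-13 induces in airway epithelium, had 49.4, 123, 183, 113 and 62.5 CPM in combination lungs and 229 to 591 CPM (median 414) in isotype lungs, against 14.7, 6.72, 3.77, 7.89 and 5.55 CPM in saline lungs. It was higher than in saline (log2 fold change 3.78 ± 0.49 SE, adjusted p = 3.93e-07) and lower than in isotype (log2 -1.97, 95% interval -2.85 to -1.09, adjusted p = 0.0075), and no 2 of the 3 groups overlapped. Clca1, a secreted mucus protein and a classic IL-13 target, had 9.32, 19.6, 11.4, 3.03 and 66.9 CPM in combination lungs and 11 to 688 CPM (median 61.2) in isotype lungs, against 2.83, 0.165, 0.138, 0.583 and 0 CPM in saline lungs. It too was higher than in saline (log2 fold change 4.92 ± 1.17 SE, adjusted p = 0.00139) and lower than in isotype (log2 -2.75, 95% interval -4.74 to -0.75, adjusted p = 0.0467), but its isotype and combination ranges overlapped and the difference from isotype was -2.04 (adjusted p = 0.192) with the covariate. Without combination replicate 8 its value against saline was 3.90 (adjusted p = 0.00845), and without saline replicate 1 it was 6.59 (adjusted p = 0.00059). Muc5ac, the gel-forming mucin of mucous metaplasia, had 2.52, 12.4, 5.12, 4.67 and 6.19 CPM in combination lungs and 1.63, 1.21, 0.587, 1.28 and 0.726 CPM in saline lungs. Muc5ac had a log2 fold change of 2.51 ± 0.54 SE (adjusted p = 0.00062). Its difference from isotype was not resolved (log2 -0.65, 95% interval -1.60 to 0.31, adjusted p = 0.291). Agr2, a disulfide isomerase needed for mucin folding, was higher in combination than in saline (log2 fold change 4.87 ± 0.68 SE, adjusted p = 1.22e-06) and than in isotype (log2 1.77, 95% interval 0.73 to 2.81, adjusted p = 0.0242), though against isotype it was 1.05 (adjusted p = 0.12) with the covariate. Tff1, a trefoil peptide, had 21 counts in the combination group and 0 in the saline group, at least 11.3-fold higher when 3 counts over the saline group are taken as the floor, and at least 7.48-fold without combination replicate 1.

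**Figure D3:**
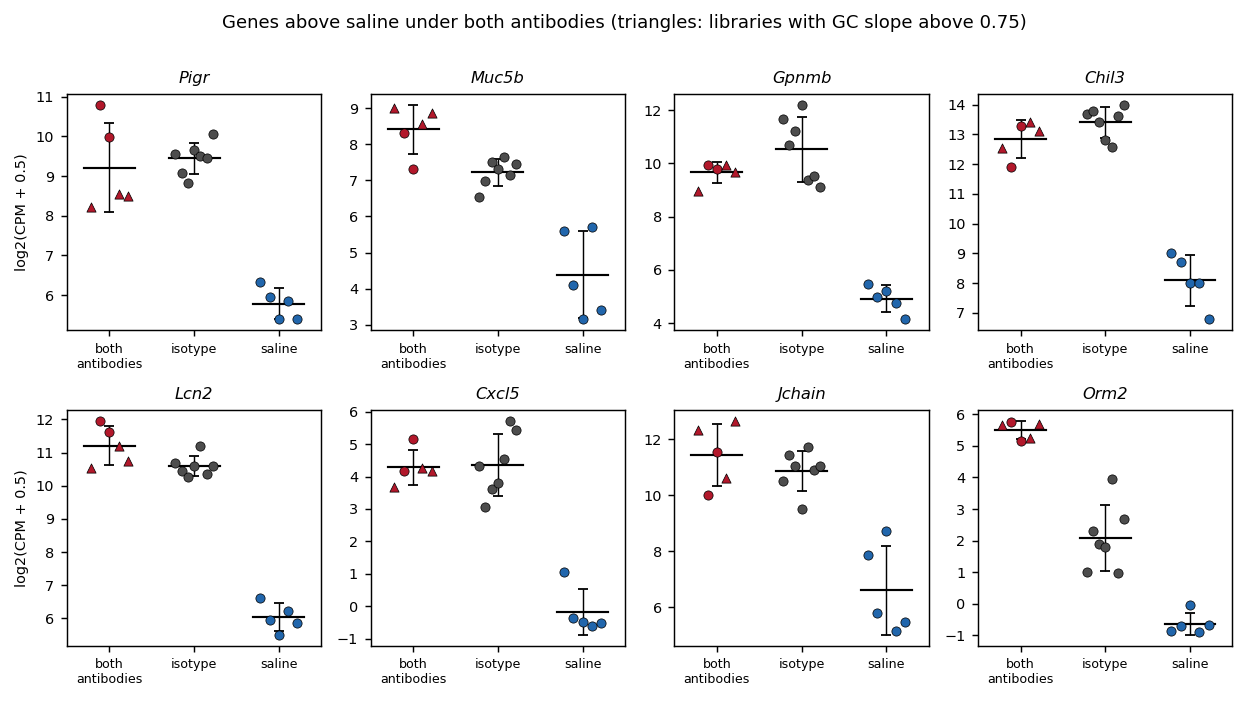
log2(CPM + 0.5) of 8 genes in each combination, isotype and saline library, with group mean and SD (n = 5, 7 and 5); triangles mark GC slope above 0.75. For all 8 genes the combination libraries lie above every saline library, and Orm2 also lies above every isotype library, at 34.7 to 54.1 CPM.

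Genes of lipid-handling macrophages formed the next group. Of 18 tested members, 16 were higher and 0 lower in combination than in saline lungs (median log2 fold change 2.77); the count was 16 with the covariate and 14 without the steep libraries. In isotype lungs 17 were higher and 1 lower than in saline. The shares over all genes were 27.8% higher and 20.3% lower in combination, and 13.0% and 12.4% in isotype. With the covariate 11.6% of all genes were higher in combination, and 9.87% without the steep libraries. Gpnmb, a glycoprotein of macrophages loaded with lipid, had 499.7, 990.3, 877, 977 and 823 CPM in combination lungs and 44, 31, 36.3, 26.7 and 17.2 CPM in saline lungs. Gpnmb had a log2 fold change of 4.75 ± 0.62 SE (adjusted p = 4.2e-07). Spp1, which encodes osteopontin, had 2535, 1433, 675, 2229 and 857 CPM in combination lungs and 34.6, 31.9, 23.5, 77.7 and 30.4 CPM in saline lungs. Spp1 had a log2 fold change of 5.29 ± 0.64 SE (adjusted p = 7.92e-08). Neither gene overlapped between these groups, and their differences from isotype did not pass (adjusted p = 0.0707 for Gpnmb and 0.164 for Spp1), although Gpnmb was lower than in isotype without combination replicate 2 (-1.32, adjusted p = 0.0484). Mmp12, the macrophage elastase, was intermediate: it had 167, 277, 214, 49.6 and 239 CPM in combination lungs and 184 to 1388 CPM (median 1056) in isotype lungs, against 7.83, 9.58, 5.35, 5.68 and 3.47 CPM in saline lungs. It was higher than in saline (log2 fold change 4.89 ± 0.68 SE, adjusted p = 1.38e-06) and lower than in isotype (log2 -2.17, 95% interval -3.34 to -1.0, adjusted p = 0.0172). The cysteine protease Ctsk behaved alike, with 337 ± 144 CPM in combination lungs, 952 ± 566 CPM in isotype lungs and 18.3 ± 7.1 CPM in saline lungs (mean ± SD, n = 5, 7 and 5), and a difference from isotype of -1.50 on the log2 scale (adjusted p = 0.0249). Because these are bulk lungs, more cells of a type and more RNA per cell cannot be told apart, here and in every group below.

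Alternatively activated macrophages split into genes near the saline level and genes above it. Of 17 tested members 6 were higher and 2 lower in combination than in saline (5 and 2 with the covariate, 9 and 1 without saline replicate 3), and 7 were lower and 0 higher than in isotype (4 without combination replicate 1 or replicate 8, 2 without the steep libraries). Over all genes 27.8% were higher and 20.3% lower than in saline, and 6.32% were lower and 12.6% higher than in isotype. Arg1, the arginase that marks IL-4 and IL-13 signalling in macrophages, had 17.9, 6.73, 9.05, 14.4 and 6.19 CPM in combination lungs and 59.1 to 719 CPM (median 114) in isotype lungs, against 1.78, 1.43, 14.6, 1.67 and 1.62 CPM in saline lungs. All 5 combination libraries were below every isotype library (log2 -4.48, 95% interval -6.33 to -2.63, adjusted p = 0.00549), while the difference from saline did not pass. Arg1 had a log2 fold change of 1.35 ± 0.84 SE (adjusted p = 0.174). Saline replicate 3, the library with marker RNA of other tissues, was 14.6 CPM; without it Arg1 was higher in combination than in saline, at 2.71 (adjusted p = 0.0149). Chil4, a chitinase-like protein of epithelium and macrophages, likewise had 2.52, 1.73, 5.3, 6.43 and 35.8 CPM in combination lungs and 0.144, 0.275, 25.8, 0.583 and 0.0991 CPM in saline lungs. Chil4 had a log2 fold change of 0.93 ± 0.98 SE (adjusted p = 0.431), and 5.19 (adjusted p = 0.000447) without that library. It was lower than in isotype, which had 11.7 to 225 CPM (median 50.2, log2 -2.91, 95% interval -4.93 to -0.89, adjusted p = 0.041). Pdcd1lg2, which encodes the checkpoint ligand PD-L2, had 1.77, 4.86, 3.06, 1.94 and 2.4 CPM in combination lungs and 7.04 to 10.9 CPM (median 9.73) in isotype lungs, against 3.02, 1.38, 2.52, 1.4 and 3.47 CPM in saline lungs. It was lower than in isotype (log2 -1.72, 95% interval -2.48 to -0.96, adjusted p = 0.00711) and its difference from saline did not pass. Pdcd1lg2 had a log2 fold change of 0.25 ± 0.39 SE (adjusted p = 0.6). Cd209e, a C-type lectin, had low levels throughout and was also lower than in isotype (log2 -2.83, 95% interval -4.31 to -1.35, adjusted p = 0.0157).

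Retnla and Chil3, secreted products of alternatively activated and alveolar macrophages, were above saline by a wide margin. Retnla had 1009.8, 340.5, 327, 623 and 769 CPM in combination lungs and 682 to 5069 CPM (median 2024) in isotype lungs, against 56.8, 40.2, 120.0, 47.4 and 25 CPM in saline lungs. It was higher than in saline (log2 fold change 3.41 ± 0.51 SE, adjusted p = 5.14e-06) and lower than in isotype (log2 -2.21, 95% interval -3.16 to -1.27, adjusted p = 0.0059). Chil3 had 5907, 3799.9, 9977, 10851 and 8892 CPM in combination lungs and 6067 to 16239.9 CPM (median 12547) in isotype lungs, against 514, 419.7, 254, 255 and 110.1 CPM in saline lungs. Chil3 had a log2 fold change of 4.67 ± 0.41 SE (adjusted p = 6.49e-11). Its difference from isotype was not resolved (log2 -0.54, 95% interval -1.21 to 0.13, adjusted p = 0.21). Chil3 and Chil4 are close copies, and how short reads that match both were assigned is not given in the sources used here. The transcription factor Egr2 and the mannose receptor Mrc1 were higher than in saline, with log2 fold changes of 1.79 (adjusted p = 0.000987) and 1.52 (adjusted p = 0.00114). F13a1, the coagulation factor XIII A chain of resident macrophages, was lower than in saline (log2 fold change -1.97 ± 0.35 SE, adjusted p = 7.48e-05) and than in isotype (log2 -1.29, 95% interval -1.96 to -0.62, adjusted p = 0.0151). Alox15, a lipoxygenase, was called lower than in saline (log2 fold change -2.15 ± 0.66 SE, adjusted p = 0.00922), but not without saline replicate 3, where it was -1.38 (adjusted p = 0.0744).

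Retnla, Pdcd1lg2, Cd209e and Chil4 were lower than in isotype, and of these Retnla alone passed in every fit named above. Chil3, and Lcn2, which is described below, were not called lower than in isotype. The 250 bases before the transcription start of each of these genes are printed here. They are RefSeq promoters of GRCm38.p6, 5′ to 3′ on the gene's strand, and the capitals mark TTC and GAA with 4 or 3 bases between them, the palindromes that STAT6 and other STAT proteins are known to bind. Each palindrome reads the same on both strands, and the 2 spacings cannot start at the same base. The windows are chr16:48842359-48842608 (plus strand) for Retnla, chr19:29410669-29410918 (plus) for Pdcd1lg2, chr8:3854287-3854536 (minus) for Cd209e, chr3:106219480-106219729 (minus) for Chil4, chr3:106167565-106167814 (minus) for Chil3 and chr2:32387740-32387989 (minus) for Lcn2.
Retnla: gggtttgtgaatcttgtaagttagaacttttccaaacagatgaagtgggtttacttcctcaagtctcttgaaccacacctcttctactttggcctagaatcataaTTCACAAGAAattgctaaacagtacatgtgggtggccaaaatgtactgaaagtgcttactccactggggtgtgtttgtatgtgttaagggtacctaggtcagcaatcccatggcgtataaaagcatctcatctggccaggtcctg
Pdcd1lg2: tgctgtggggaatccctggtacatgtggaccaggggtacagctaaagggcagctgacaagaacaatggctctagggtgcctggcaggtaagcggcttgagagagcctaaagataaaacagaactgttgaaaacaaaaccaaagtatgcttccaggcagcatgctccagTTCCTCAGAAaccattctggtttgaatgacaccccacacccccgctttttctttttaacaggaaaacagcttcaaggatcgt
Cd209e: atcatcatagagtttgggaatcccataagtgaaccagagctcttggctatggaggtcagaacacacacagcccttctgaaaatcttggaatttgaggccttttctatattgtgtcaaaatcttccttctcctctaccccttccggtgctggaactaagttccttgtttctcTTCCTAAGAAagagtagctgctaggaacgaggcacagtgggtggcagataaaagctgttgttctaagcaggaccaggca
Chil4: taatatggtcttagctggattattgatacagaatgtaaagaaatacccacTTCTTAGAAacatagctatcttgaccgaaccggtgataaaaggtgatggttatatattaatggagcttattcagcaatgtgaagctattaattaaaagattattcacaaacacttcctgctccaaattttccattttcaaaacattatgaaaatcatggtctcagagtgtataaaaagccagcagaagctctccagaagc
Chil3: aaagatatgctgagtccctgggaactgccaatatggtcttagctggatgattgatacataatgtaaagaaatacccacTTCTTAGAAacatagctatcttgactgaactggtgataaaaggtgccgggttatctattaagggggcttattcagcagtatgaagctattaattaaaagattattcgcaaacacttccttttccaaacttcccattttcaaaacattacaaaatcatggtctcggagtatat
Lcn2: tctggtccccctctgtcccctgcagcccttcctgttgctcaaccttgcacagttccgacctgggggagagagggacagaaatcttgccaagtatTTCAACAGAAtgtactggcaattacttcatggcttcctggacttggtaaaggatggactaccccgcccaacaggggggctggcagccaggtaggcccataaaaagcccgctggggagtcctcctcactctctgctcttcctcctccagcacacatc
The match began 145 bases before the start in Retnla, 82 in Pdcd1lg2, 79 in Cd209e, 200 in Chil4, 172 in Chil3 and 156 in Lcn2. The first 3 of these and Lcn2 held the 4-base spacer, and Chil4 and Chil3 held the same 3-base one, TTCTTAGAA; their windows were identical at 67.6% of 222 aligned bases. Of all 32851 promoter windows of this length, 5.85% held the palindrome with 4 bases between, 7.02% the one with 3 and 12.4% either. Among the alternatively activated macrophage genes, 5 of 18 promoter windows (27.8%) held either motif, which came to 5 of the 13 genes with a window. Chil3 and Chil4, with the same match, are among these 5. A match describes these letters only. Every window printed here held a match and none without one is shown. That the motif stands before genes lower than in isotype and before genes that were not was fixed by this choice, so nothing is drawn from it.

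Type 2 cytokine genes, their receptors and their chemokines divided into genes above saline and genes that did not pass. Of 14 tested members of the cytokine list 5 were higher and 1 lower in combination than in saline, where 27.8% and 20.3% of all genes were called. With the covariate 6 were higher and 1 lower, where 11.6% and 11.7% of all genes were called. Of 13 eotaxins and T cell chemokines 3 were higher and 2 lower, and 3 and 1 with the covariate. Il1rl1, the IL-33 receptor, had 2.33, 15.2, 7.77, 2.18 and 3.33 CPM in combination lungs and 17.9 to 30.6 CPM (median 25.4) in isotype lungs, against 5.38, 6.11, 5.98, 4.39 and 4.03 CPM in saline lungs. Every combination library was below every isotype library (log2 -2.03, 95% interval -3.13 to -0.93, adjusted p = 0.0173), and the difference from saline did not pass. Il1rl1 had a log2 fold change of 0.26 ± 0.55 SE (adjusted p = 0.709). Il13ra2, the decoy receptor for IL-13 and one of its strongest targets, had 0.0932, 0.2, 0.0914, 0.182 and 0.387 CPM in combination lungs and 1.35 to 4.21 CPM (median 1.97) in isotype lungs, against 0.096, 0, 0.242, 0 and 0.033 CPM in saline lungs. It was lower than in isotype (log2 -3.55, 95% interval -5.15 to -1.95, adjusted p = 0.00751), and against saline its adjusted p was 0.316. Ccl11, the eotaxin that recruits eosinophils, had 7.36, 6.66, 2.29, 3.7 and 6.65 CPM in combination lungs and 22.6 to 67 CPM (median 35.7) in isotype lungs, against 1.78, 0.992, 8.57, 1.71 and 1.55 CPM in saline lungs. It was lower than in isotype (log2 -2.94, 95% interval -3.92 to -1.97, adjusted p = 0.00122) and did not pass against saline (log2 fold change 0.85 ± 0.48 SE, adjusted p = 0.136), but it did without saline replicate 3, at 1.78 (adjusted p = 0.00302). Ccl24, a second eotaxin, was lower than in isotype (log2 -3.21, 95% interval -5.39 to -1.04, adjusted p = 0.0376), was -3.03 (adjusted p = 0.0733) with the covariate, and did not pass against saline (adjusted p = 0.457).

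Of the cytokines, Il13 was above saline. It had 1.4, 0.533, 3.15, 0.121 and 0.928 CPM in combination lungs and 0.728 to 4.03 CPM (median 1.59) in isotype lungs, against 0, 0, 0.0345, 0.0389 and 0 CPM in saline lungs. That is 106 counts in the combination group and 2 in the saline group, a ratio of 85.3 with an exact 95% counting interval of 23.0 to 713 (adjusted p = 1.9e-06). Without combination replicate 3, the highest library, the ratio was 41.6 (interval 10.7 to 356). No combination library overlapped saline, and the difference from isotype was not resolved (log2 -0.76, 95% interval -1.78 to 0.25, adjusted p = 0.243), although Il13 was lower than in isotype without combination replicate 3, at -1.56 (adjusted p = 0.0313). Il5 rested on 1 animal: it had 0, 0.466, 2.56, 0 and 0 CPM in combination lungs and 0, 0.0551, 0.242, 0.117 and 0.033 CPM in saline lungs. Il5 had a log2 fold change of 2.71 ± 0.87 SE (adjusted p = 0.0116), and 0.35 (adjusted p = 0.767) without combination replicate 3; without saline replicate 3 it was 3.48 (adjusted p = 0.00704). Il4 was at 0 counts in all combination, isotype and saline libraries, a gene whose mouse form the labels describe as replaced. Il33 had 8.48, 32.7, 13.4, 4.07 and 4.49 CPM in combination lungs and 13.7, 12.9, 9.98, 13.3 and 12.1 CPM in saline lungs and did not pass (log2 fold change 0.03 ± 0.46 SE, adjusted p = 0.964); with the covariate it was 0.93 (adjusted p = 0.000739). Il4ra was higher in combination (log2 fold change 1.68 ± 0.46 SE, adjusted p = 0.00428) but 0.13 (adjusted p = 0.706) with the covariate. The labels also name human sequence for IL-33 and the outer part of IL-4Rα, whereas the build was mouse mm10. How reads from that human sequence were counted is not stated, so the levels of Il33 and Il4ra are uncertain. Tslp, another epithelial alarm cytokine, was lower than in saline, at 1.4, 1.33, 1.14, 0.789 and 1.01 CPM in combination lungs against 3.26, 2.81, 1.93, 3.62 and 4.59 CPM in saline lungs (log2 fold change -1.52 ± 0.39 SE, adjusted p = 0.00272), and its receptor chain Crlf2 was higher. Crlf2 had a log2 fold change of 4.18 ± 0.82 SE (adjusted p = 0.000231). Without combination replicate 1 Crlf2 was 3.11 (adjusted p = 0.00295). The T cell chemokines Ccl17 and Ccl22 were higher than in saline (log2 2.75 and 2.02) and than in isotype (log2 1.35, adjusted p = 0.0453, and 0.74, adjusted p = 0.0426). Ccl5, made by T and NK cells, was lower than in saline (log2 fold change -1.52 ± 0.55 SE, adjusted p = 0.0234), though not without combination replicate 5, at -1.42 (adjusted p = 0.0545).

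**Figure D4:**
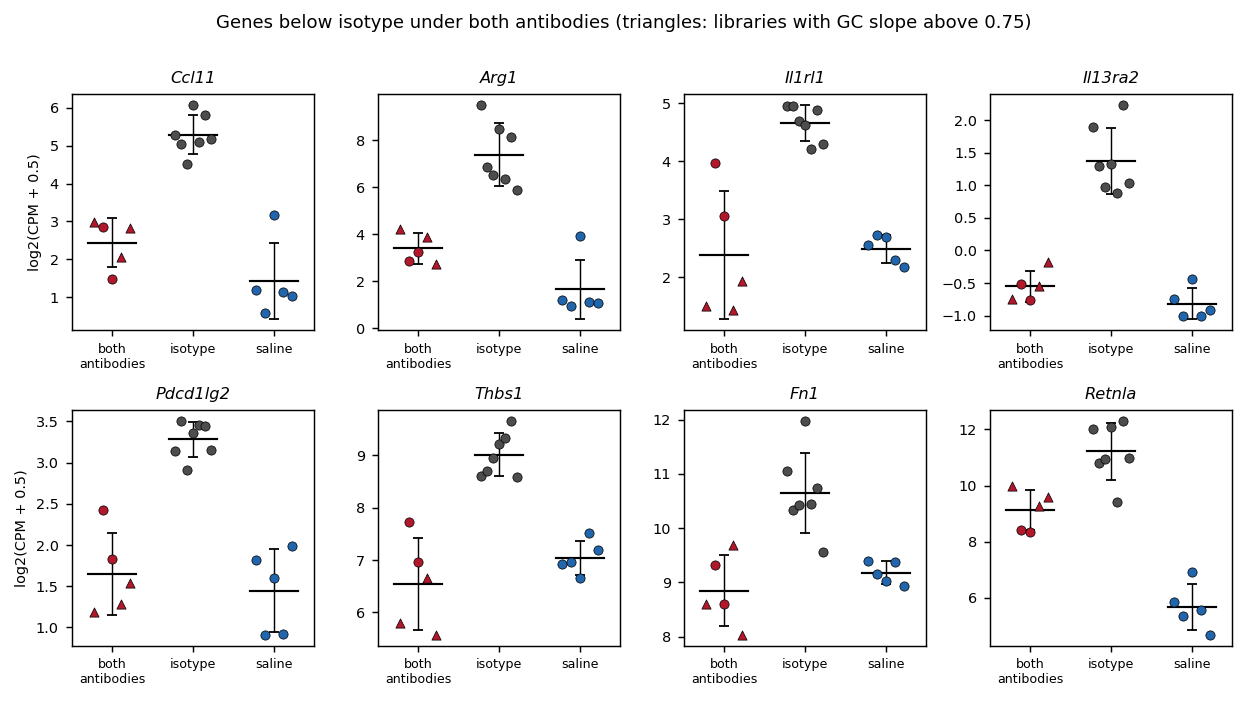
log2(CPM + 0.5) of 8 genes lower in combination than in isotype lungs, in each combination, isotype and saline library, with group mean and SD (n = 5, 7 and 5); triangles mark GC slope above 0.75. Ccl11, Arg1, Il1rl1, Il13ra2, Pdcd1lg2 and Thbs1 lie below every isotype library, saline replicate 3 is the high point of the saline group for Ccl11 (8.57 CPM) and Arg1 (14.6 CPM), and Retnla lies above every saline library.

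Type 17 and neutrophil-attracting mediators were higher in 8 of 14 tested members and lower in 0, where 27.8% and 20.3% of all genes were called. The count was 8 with the covariate and 7 without the steep libraries, where 11.6% and 9.87% of all genes were higher. Isotype lungs had 9 higher, where 13.0% of all genes were. Lcn2, the iron-sequestering lipocalin of airway epithelium and neutrophils, had 1484, 3982, 3167, 2365 and 1704 CPM in combination lungs and 97.7, 61.8, 44.7, 74.5 and 57.6 CPM in saline lungs. Lcn2 had a log2 fold change of 5.24 ± 0.29 SE (adjusted p = 1.25e-16). It was also higher than in isotype lungs, which had 1238 to 2363 CPM (median 1558, log2 0.68, 95% interval 0.23 to 1.14, adjusted p = 0.0355). Cxcl5, an epithelial chemokine for neutrophils, had 12.3, 17.4, 35.1, 18.8 and 17.6 CPM in combination lungs and 1.58, 0.275, 0.207, 0.156 and 0.198 CPM in saline lungs. Cxcl5 had a log2 fold change of 5.42 ± 0.64 SE (adjusted p = 5.31e-08), and without saline replicate 1 the value was 6.56 (adjusted p = 5.49e-09). Its difference from isotype was not resolved (log2 -0.26, 95% interval -1.22 to 0.70, adjusted p = 0.687). Saa3, an acute phase protein made in mouse lung, had 871, 138, 109.9, 612 and 571 CPM in combination lungs and 5.66, 1.82, 12.9, 3.89 and 1.06 CPM in saline lungs. Saa3 had a log2 fold change of 6.50 ± 0.83 SE (adjusted p = 2.58e-07), and 7.19 (adjusted p = 3.24e-07) without saline replicate 3. Il17a had 1.58, 0.533, 2.83, 0.728 and 2.86 CPM in combination lungs and 0 counts in all 5 saline lungs. Its 136 counts in the combination group make it at least 72.9-fold higher (floor of 3 counts over the saline group; adjusted p = 0.000181). Cxcl2, a neutrophil chemokine of macrophages, was the contrary case: it was higher than in saline (log2 fold change 3.24 ± 0.69 SE, adjusted p = 0.00049) and lower than in isotype (log2 -2.14, 95% interval -3.30 to -0.98, adjusted p = 0.0175). The neutrophil granule genes S100a8 and S100a9 did not pass (adjusted p = 0.0885 and 0.433).

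Of 13 monocyte chemokines and receptors 9 were higher and 1 lower than in saline (9 and 1 with the covariate, 6 and 0 without the steep libraries). Over all genes 27.8% were higher and 20.3% lower (11.6% and 11.7% with the covariate, 9.87% and 5.99% without the steep libraries). Ccl6, a chemokine of macrophages, had 3809.7, 1755, 3787, 3221 and 3377 CPM in combination lungs and 701 to 1449.9 CPM (median 1012) in isotype lungs, against 265, 139, 152, 105 and 87.6 CPM in saline lungs. It was higher than in both saline (log2 fold change 4.41 ± 0.40 SE, adjusted p = 1.61e-10) and isotype (log2 1.58, 95% interval 0.93 to 2.23, adjusted p = 0.00549), and no 2 of the 3 groups overlapped. Ccl3 had 11.3, 51.3, 13.9, 16.1 and 12 CPM in combination lungs and 1.63, 1.27, 0.415, 0.817 and 1.22 CPM in saline lungs. Ccl3 had a log2 fold change of 4.29 ± 0.51 SE (adjusted p = 6.44e-08), and 3.64 (adjusted p = 2.19e-07) without combination replicate 2. Ccl8 and Ccl12 were higher by 2.44 and 2.40 on the log2 scale (adjusted p = 0.00169 and 0.00113). Ccl9 was lower than in isotype (log2 -1.98, 95% interval -2.94 to -1.02, adjusted p = 0.0112) and did not pass against saline (adjusted p = 0.157), although it did with the covariate, at 1.49 (adjusted p = 0.0128).

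Acute phase and complement genes were higher in 10 of 14 and lower in 1 (8 and 0 with the covariate). The shares over all genes were 27.8% and 20.3% (11.6% and 11.7% with the covariate). Orm1 and Orm2 encode orosomucoids, plasma carrier proteins that are close copies of each other. Orm1 had 155, 92.6, 83.2, 106 and 121 CPM in combination lungs and 17.8 to 42.8 CPM (median 22.5) in isotype lungs, against 1.34, 0.386, 8.67, 1.05 and 1.39 CPM in saline lungs. Orm1 had a log2 fold change of 5.42 ± 0.70 SE (adjusted p = 3.47e-07), and 6.70 (adjusted p = 1.09e-08) without saline replicate 3. Orm2 had 50.6, 54.1, 34.7, 37.7 and 51.2 CPM in combination lungs and 1.47 to 14.9 CPM (median 3.18) in isotype lungs, against 0.048, 0.11, 0.484, 0.0389 and 0.132 CPM in saline lungs. Orm2 had a log2 fold change of 8.01 ± 0.99 SE (adjusted p = 1.42e-07), and 8.96 (adjusted p = 3.9e-07) without saline replicate 3. For each, all 5 combination libraries lay above every isotype and every saline library, and the differences from isotype were 2.12 (adjusted p = 0.0146) and 3.21 (adjusted p = 0.00555) on the log2 scale. The fibrinogen chains went the other way between the mite groups. Fga had 8.11, 4.93, 4.25, 6.86 and 8.35 CPM in combination lungs and 13 to 68.6 CPM (median 37) in isotype lungs, against 1.82, 0.441, 0.345, 0.7 and 0.495 CPM in saline lungs, which put it above saline (log2 fold change 3.10 ± 0.56 SE, adjusted p = 7.83e-05) and below isotype (log2 -2.62, 95% interval -3.64 to -1.60, adjusted p = 0.00455), with Fgg likewise at 2.41 (adjusted p = 0.00111) and -1.81 (adjusted p = 0.0211).

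Plasma cell genes were higher in 7 of 11 and lower in 0, with 9 higher under the covariate and 8 without the steep libraries. Over all genes 27.8% were higher and 20.3% lower, with 11.6% and 11.7% under the covariate and 9.87% and 5.99% without the steep libraries. Isotype lungs had 9 higher, where 13.0% of all genes were. Jchain, which joins IgA and IgM into polymers, had 5175, 1046, 3025, 1591 and 6509 CPM in combination lungs and 235, 55.4, 421, 34.7 and 44 CPM in saline lungs. Jchain had a log2 fold change of 4.46 ± 0.65 SE (adjusted p = 3.24e-06), and 5.21 (adjusted p = 7.91e-07) without saline replicate 3. Tnfrsf17, the plasma cell survival receptor BCMA, had 11.6, 1.4, 7.45, 5.16 and 13.8 CPM in combination lungs and 0.432, 0.165, 1.28, 0.117 and 0.132 CPM in saline lungs. Tnfrsf17 had a log2 fold change of 4.15 ± 0.64 SE (adjusted p = 7.18e-06), and 5.19 (adjusted p = 9.16e-07) without saline replicate 3. Derl3 and Mzb1, which serve protein folding and export in antibody-secreting cells, were higher by 5.07 and 3.08 on the log2 scale (adjusted p = 8.56e-08 and 5.4e-06), Derl3 with 4.35 (adjusted p = 3.46e-07) without combination replicate 1. Mzb1 overlapped saline in 1 library, combination replicate 2 at 12.1 CPM. None of the 4 passed against isotype over all libraries, where Jchain was log2 0.74, 95% interval -0.31 to 1.79, adjusted p = 0.269; Tnfrsf17 did without combination replicate 2 (1.24, adjusted p = 0.0366). B cell and lymphoid chemokine genes showed no such shift: 2 of 14 were higher and 3 lower, and 0 in either direction with the covariate. Cxcl13, the B cell chemokine, ranged from 7.95 to 88.5 CPM in combination lungs and 5.35 to 70.0 CPM in saline lungs and did not pass (adjusted p = 0.499).

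Among T cell genes 5 of 13 were higher and 1 lower than in saline (6 and 1 with the covariate). Over all genes 27.8% were higher and 20.3% lower, and with the covariate 11.6% and 11.7%. Foxp3, the regulatory T cell factor, had 3.36, 18.2, 2.79, 5.52 and 1.93 CPM in combination lungs and 1.82, 1.05, 1.45, 1.48 and 1.49 CPM in saline lungs. Foxp3 had a log2 fold change of 2.12 ± 0.46 SE (adjusted p = 0.000643), and 1.22 (adjusted p = 0.00881) without combination replicate 2. Pdcd1, which encodes PD-1, was higher by 1.99 (adjusted p = 0.000121). Cd8a, of cytotoxic T cells, moved the other way, with 1.03, 4.4, 3.7, 1.76 and 1.47 CPM in combination lungs and 6.58, 29.7, 22.6, 22.2 and 36.9 CPM in saline lungs (log2 fold change -3.24 ± 0.53 SE, adjusted p = 2.12e-05) and no overlap.

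The NK cell and cytotoxic granule list was below saline. Of 10 genes listed 10 were tested, and all of these were lower in combination lungs (median log2 fold change -1.82). The count was 9 with the covariate and 6 without the steep libraries, and in isotype lungs 9 were lower. The shares of all genes called lower were 20.3%, 11.7%, 5.99% and 12.4% in these 4 comparisons, in that order. Ncr1, the NK cell receptor NKp46, had 1.58, 1.86, 1.05, 1.03 and 1.55 CPM in combination lungs and 0.241 to 1.46 CPM (median 0.437) in isotype lungs, against 4.32, 5.29, 2.35, 4.36 and 8.45 CPM in saline lungs. It was lower than in saline (log2 fold change -1.81 ± 0.48 SE, adjusted p = 0.00324) and higher than in isotype (log2 1.27, 95% interval 0.35 to 2.18, adjusted p = 0.0457). Perforin (Prf1) had 0.839, 0.799, 1.46, 3.16 and 1.93 CPM in combination lungs and 5.71, 10.6, 6.67, 6.57 and 13.9 CPM in saline lungs (log2 fold change -2.39 ± 0.39 SE, adjusted p = 2.1e-05), and granzyme B (Gzmb) had 1.12, 1.73, 2.47, 2.12 and 1.78 CPM in combination lungs and 5.62, 14.1, 13.8, 11.1 and 20.04 CPM in saline lungs. Gzmb had a log2 fold change of -2.79 ± 0.49 SE (adjusted p = 5.31e-05). Gzma and the NK receptor Klre1 were lower, with log2 fold changes of -2.74 and -2.15 (adjusted p = 0.000938 and 0.0063). Of these 5 genes only Ncr1 passed against isotype over all libraries; Gzma passed without combination replicate 2 (1.62, adjusted p = 0.0221) and without replicate 3 (1.62, adjusted p = 0.0327).

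Many genes of structural cells of the alveolus were lower, where 20.3% of all genes were lower and 27.8% higher. Of 11 alveolar type 1 genes 7 were lower and 1 higher, with 9 and 0 under the covariate and 5 and 0 without the steep libraries. Hopx, a transcription cofactor of type 1 cells, had 55.5, 111, 183, 121 and 69.7 CPM in combination lungs and 388, 415, 366, 420.3 and 363 CPM in saline lungs. Hopx had a log2 fold change of -1.85 ± 0.30 SE (adjusted p = 1.67e-05), and isotype lungs had 70.1 to 173 CPM (median 78.6). Cav1, the coat protein of caveolae, had 190.0, 432, 384, 267 and 135 CPM in combination lungs and 1181, 1154, 943, 1292 and 1028 CPM in saline lungs. Cav1 had a log2 fold change of -1.99 ± 0.40 SE (adjusted p = 0.000325). Clic5 and Akap5 were lower, with log2 fold changes of -2.19 and -2.26 (adjusted p = 0.00096 and 0.00359), although Akap5 overlapped saline and did not pass without the steep libraries, at -1.23 (adjusted p = 0.0615); without combination replicate 2 it was -3.49 (adjusted p = 3.23e-05). Capillary endothelium had 5 of 13 lower and 2 higher (8 and 2 with the covariate, 4 and 1 without the steep libraries). The angiopoietin receptor Tek had 18.4, 126, 89.6, 16.3 and 14.8 CPM in combination lungs and 334, 355, 260.1, 356 and 294 CPM in saline lungs. Tek had a log2 fold change of -2.59 ± 0.56 SE (adjusted p = 0.000667), and -3.20 (adjusted p = 8.5e-05) without combination replicate 2. The VEGF receptor Kdr was lower at -2.37 (adjusted p = 0.00178). Fibroblast genes had 6 of 12 lower and 2 higher (5 and 0 with the covariate, 2 and 0 without the steep libraries). Those lower included the growth factor receptor Pdgfra (log2 fold change -2.36 ± 0.49 SE, adjusted p = 0.000429) and Limch1 (log2 fold change -1.74 ± 0.39 SE, adjusted p = 0.000814).

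**Figure D5:**
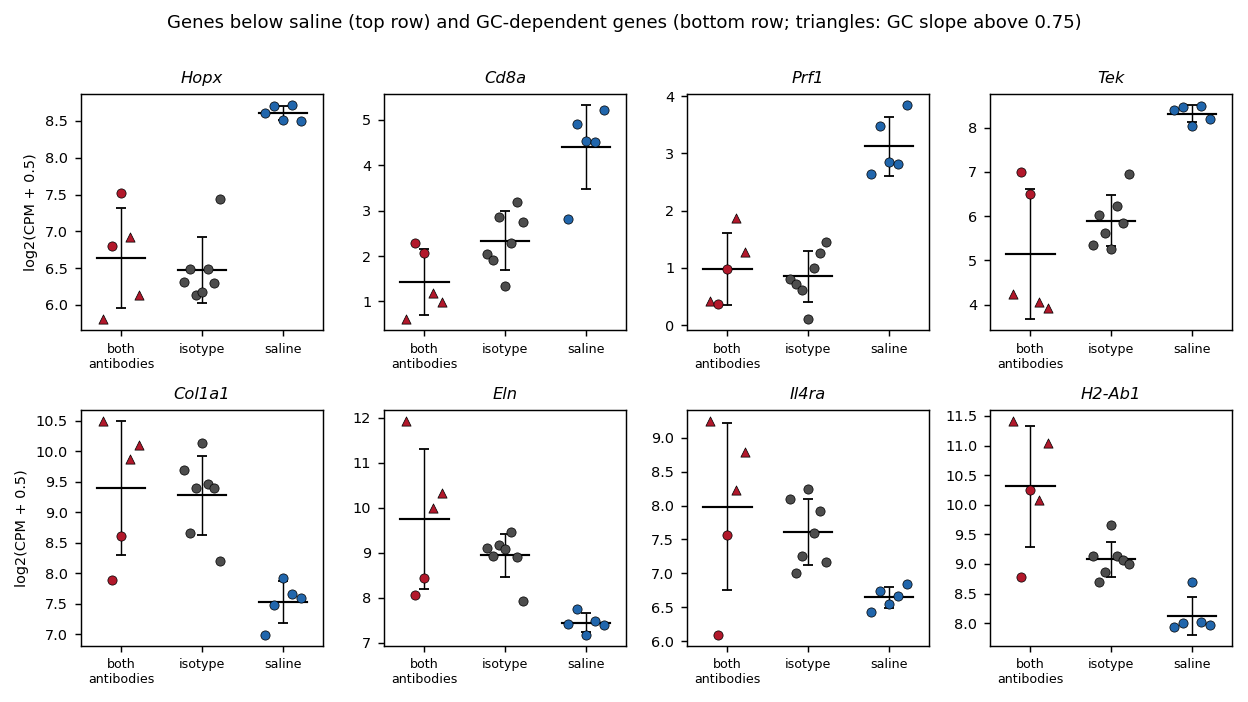
log2(CPM + 0.5) in each combination, isotype and saline library, with group mean and SD (n = 5, 7 and 5). Top row, 4 genes lower in combination than in saline lungs, with no overlap between these groups; bottom row, 4 genes with a smaller change under the GC covariate, with the triangles (slope above 0.75) above the circles for Col1a1, Eln and Il4ra, and combination replicate 2 at 266 CPM for Eln.

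The calls of matrix genes changed with the treatment of the GC slope, as did those of all genes. In combination lungs 12 of 22 were higher than in saline and 1 was lower. With the covariate the counts were 5 and 0, and without the steep libraries 2 and 0. Over all genes 27.8% were higher and 20.3% lower, with 11.6% and 11.7% under the covariate. Without the steep libraries these shares were 9.87% and 5.99%. With offsets for GC and transcript length instead, they were 13 and 0. In isotype lungs 15 were higher and 2 lower than in saline. Eln, which encodes elastin, had 3913, 266, 346, 1027 and 1284 CPM in combination lungs and 171, 217, 144, 179 and 168 CPM in saline lungs (log2 fold change 2.96 ± 0.65 SE, adjusted p = 0.000675); its value was 0.89 (adjusted p = 0.0621) with the covariate, 0.81 (adjusted p = 0.204) without the steep libraries and 2.06 (adjusted p = 0.0111) without combination replicate 1. Col1a1, the main fibrillar collagen chain, had 1445, 237, 393, 942 and 1096 CPM in combination lungs and 127, 178, 242, 202 and 193 CPM in saline lungs (log2 fold change 2.13 ± 0.49 SE, adjusted p = 0.00109) and was 0.69 (adjusted p = 0.0713) with the covariate. Loxl1, which crosslinks elastin, was higher (log2 fold change 2.48 ± 0.66 SE, adjusted p = 0.00313) but 0.30 (adjusted p = 0.486) with the covariate and 1.77 (adjusted p = 0.0333) without combination replicate 1. Against isotype, 8 members were lower and 2 higher, where 6.32% and 12.6% of all genes were called. In the fit without combination replicate 1, 1 was lower, with 3 without replicate 8 and 4 without the steep libraries, and 0 were higher in these. Thbs1, thrombospondin, had 55.3, 210.4, 124, 100.3 and 46.9 CPM in combination lungs and 384 to 809 CPM (median 496) in isotype lungs, against 120.3, 124, 100.3, 182 and 145 CPM in saline lungs, lower than in isotype (log2 -2.32, 95% interval -3.39 to -1.24, adjusted p = 0.00898) and not passing against saline. Thbs1 had a log2 fold change of -0.32 ± 0.53 SE (adjusted p = 0.623). Fn1 (fibronectin) and Ccn2 (connective tissue growth factor) were likewise lower than in isotype, at -1.85 (adjusted p = 0.0167) and -1.41 (adjusted p = 0.00948), and did not pass against saline, at -0.22 and -0.14. Tnc, the matrix protein tenascin C, and Timp1, an inhibitor of matrix proteases, were lower than in isotype (adjusted p = 0.0122 and 0.0411) and higher than in saline. Timp1 had 42.3, 19, 13.3, 60.3 and 41.8 CPM in combination lungs and 7.87, 3.53, 4.73, 2.88 and 4.62 CPM in saline lungs. Timp1 had a log2 fold change of 2.90 ± 0.60 SE (adjusted p = 0.000406), and 1.77 (adjusted p = 0.0527) without the steep libraries. Tnc passed narrowly (log2 fold change 1.14 ± 0.47 SE, adjusted p = 0.0421) and did not pass when any 1 of the 10 libraries other than combination replicate 8 was left out, with log2 values of 0.99 to 1.34 over all 10.

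Airway and alveolar secretory genes showed a further pattern. Of 10 club cell genes 4 were lower and 2 higher than in saline (3 and 1 with the covariate, 1 and 1 without the steep libraries), against 8 lower and 0 higher in isotype. The shares over all genes were 20.3% lower and 27.8% higher in combination, and 12.4% lower and 13.0% higher in isotype. Against isotype, 6 were higher and 0 lower in combination, where 12.6% and 6.32% of all genes were called. Of the club cell genes 3 were higher without combination replicate 1, 2 without replicate 8 and 0 without the steep libraries. Scgb1a1, the main club cell secretoglobin, had 8909.8, 10113, 4379.9, 5219 and 9923 CPM in combination lungs and 1589 to 5465 CPM (median 2829) in isotype lungs, against 16958, 13892, 8897, 15681 and 14338 CPM in saline lungs, higher than in isotype (log2 1.42, 95% interval 0.56 to 2.27, adjusted p = 0.0259) and not passing against saline. Scgb1a1 had a log2 fold change of -0.86 ± 0.46 SE (adjusted p = 0.119). Scgb3a2, a related secretoglobin, had 449.6, 226, 146, 257 and 673 CPM in combination lungs and 14.1 to 108 CPM (median 43.9) in isotype lungs, against 452, 286, 293, 403 and 305 CPM in saline lungs. It was higher than in isotype (log2 2.95, 95% interval 1.46 to 4.43, adjusted p = 0.0133) and was 0.01 against saline (adjusted p = 0.992). Cyp2f2, a club cell cytochrome, was higher than in isotype (log2 1.78, 95% interval 0.91 to 2.64, adjusted p = 0.0114) and lower than in saline (log2 fold change -1.29 ± 0.47 SE, adjusted p = 0.024), although not without combination replicate 1, at -1.30 (adjusted p = 0.0506). Scgb3a1, a secretoglobin of the larger airways, was higher than in both, with 890.4, 190.4, 262, 517 and 1308 CPM in combination lungs and 53.6 to 175 CPM (median 127) in isotype lungs, against 55.3, 22.4, 23.7, 92.5 and 33.5 CPM in saline lungs. Scgb3a1 had a log2 fold change of 3.80 ± 0.70 SE (adjusted p = 0.000106). Krt4, a keratin on both the club and the squamous list, was called lower through saline replicate 3, and was 5.07 (adjusted p = 0.126) without it. Alveolar type 2 genes had 6 of 10 higher (3 with the covariate, 4 without the steep libraries). The surfactant collectin Sftpd had 3729.6, 1401, 2704, 3691 and 2955 CPM in combination lungs and 608, 516, 374, 519 and 349.7 CPM in saline lungs (log2 fold change 2.61 ± 0.28 SE, adjusted p = 4.3e-09), whereas the protease Napsa was 1.94 (adjusted p = 0.000964) and 0.47 (adjusted p = 0.123) with the covariate.

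Some resident macrophage and antigen presentation genes were also higher. Alveolar macrophage genes had 6 of 12 higher and 1 lower than in saline (5 and 1 with the covariate), and 6 were higher than in isotype (3 without combination replicate 1, 5 or 8, and 2 without the steep libraries), where 4 were lower and 3 higher than in saline. Over all genes 27.8% were higher and 20.3% lower than in saline, and 12.6% were higher than in isotype. Plet1 had 156, 669, 316, 300.4 and 182 CPM in combination lungs and 39.4 to 192 CPM (median 74) in isotype lungs, against 77.4, 49.3, 32.5, 49.3 and 30.1 CPM in saline lungs, higher than in both (log2 fold change 2.77 ± 0.56 SE, adjusted p = 0.000319 against saline, adjusted p = 0.0167 against isotype). The scavenger receptor Marco passed narrowly against saline (log2 fold change 2.43 ± 0.93 SE, adjusted p = 0.0299), was 1.93 (adjusted p = 0.139) with the covariate, and did not pass without combination replicate 1 or saline replicate 2, 4 or 5, at 2.11 (adjusted p = 0.0819), 2.28 (adjusted p = 0.0645), 2.25 (adjusted p = 0.0675) and 2.17 (adjusted p = 0.0718); without saline replicate 1 it was 3.02 (adjusted p = 0.0198). Fabp1, a fatty acid binding protein, had 4.75, 2.13, 1.55, 2.85 and 2.55 CPM in combination lungs and 0 to 0.273 CPM (median 0.0947) in isotype lungs, against 3.41, 4.57, 2.76, 3.11 and 1.39 CPM in saline lungs; it was higher than in isotype (log2 4.69, 95% interval 3.0 to 6.38, adjusted p = 0.00237) and was -0.14 against saline (adjusted p = 0.883). Of 12 dendritic cell and MHC class II genes 6 were higher and 1 lower (3 and 0 with the covariate), with H2-Ab1 at 2736, 439, 1209, 1078 and 2105 CPM in combination lungs and 245, 256, 416, 259 and 249 CPM in saline lungs. H2-Ab1 had a log2 fold change of 2.41 ± 0.50 SE (adjusted p = 0.000433), and 0.99 (adjusted p = 0.00177) with the covariate. Cd74, the invariant chain, was higher at 1.83 (adjusted p = 0.00028). The 9 mitochondrially encoded genes were all called higher, and their sum was 226226, 219368, 31502, 42586 and 67645 CPM in combination lungs against 31536, 26002, 40435, 27813 and 27258 CPM in saline lungs. Combination replicates 1 and 2 stood far above the rest and replicate 3 within the saline range; the part of this share in the other results was not tested.

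The other lists gave small or mixed counts, where 27.8% of all genes were higher and 20.3% lower. Eosinophil genes had 2 of 8 higher and 2 lower, mast cell and basophil genes 2 of 12 higher and 1 lower, ciliated cell genes 2 of 10 higher and 0 lower, smooth muscle genes 1 of 10 higher and 1 lower (4 and 1 without saline replicate 3), and cell cycle genes 2 of 12 higher and 0 lower. Interferon response genes were lower in 5 of 13 and higher in 0, 2 with the covariate and 0 without the steep libraries. Gbp2, an interferon-induced GTPase, had 25.2, 69.3, 146, 17.5 and 18.3 CPM in combination lungs and 154, 332, 135, 133 and 110.3 CPM in saline lungs (log2 fold change -1.65 ± 0.47 SE, adjusted p = 0.00542; -0.91 (adjusted p = 0.0537) with the covariate; -2.44 (adjusted p = 0.000188) without combination replicate 3). Prostaglandin and leukotriene genes were higher in 6 of 12 and lower in 1. The prostacyclin receptor Ptgir had 51.5, 50.4, 55.5, 74.6 and 40.4 CPM in combination lungs and 8.4, 9.14, 9.78, 5.44 and 13.3 CPM in saline lungs (log2 fold change 2.56 ± 0.30 SE, adjusted p = 3.34e-08), and the leukotriene C4 synthase Ltc4s was higher by 2.91 (adjusted p = 0.000392). Hpgds, the prostaglandin D synthase of mast cells and T helper cells, was 1.29 (adjusted p = 0.00561), and 0.62 (adjusted p = 0.0936) without combination replicate 2. Squamous markers were lower in 7 of 8, and without saline replicate 3 in 0, with 1 higher. Adipose markers had 0 of 9 called in either direction (3 higher without saline replicate 3), heart and skeletal muscle markers 2 of 9 lower, erythroid markers 1 of 9 lower, and thymus markers 1 of 2 lower.

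Beyond the lists, 1680 genes passed the stricter rule of no overlap between the groups, at least 1 CPM in one of them and a call with and without the GC slope, 891 higher and 789 lower; the 12 with the largest change in each direction are named here. Higher in combination lungs were Awat1, a wax ester synthase, with 55.6, 18.8, 49.8, 92 and 57.2 CPM in combination lungs and 35.9 to 57 CPM (median 45.2) in isotype lungs, against 0.384, 0, 0, 0.0389 and 0.066 CPM in saline lungs (log2 fold change 9.12 ± 0.66 SE, adjusted p = 5.45e-13), and Npy, neuropeptide Y, with 16.5, 13, 16.8, 4.49 and 19.1 CPM in combination lungs and 9.52 to 109.8 CPM (median 37.7) in isotype lungs, against 0, 0, 0.0691, 0.0389 and 0.033 CPM in saline lungs. Npy had a log2 fold change of 8.50 ± 0.95 SE (adjusted p = 1.72e-08). Npy was lower in combination than in isotype lungs (log2 -1.74, 95% interval -2.90 to -0.57, adjusted p = 0.0365), whereas the difference of Awat1 from isotype was not resolved (log2 0.26, 95% interval -0.54 to 1.05, adjusted p = 0.625). Without saline replicate 1 the value of Awat1 against saline was 10.57 (adjusted p = 1.34e-13). Lemd1 had 170 counts in the combination group and 0 in the saline group, at least 91.2-fold higher. Clca3b, a relative of Clca1, had 3.17, 25.4, 4.66, 4.61 and 2.71 CPM in combination lungs. It had 628 counts in the combination and 3 in the saline group (ratio 337, exact 95% counting interval 115 to 1640), and the ratio was 165 (55.7 to 803) without combination replicate 2, the highest library. Nrtn, the growth factor neurturin, had 163 counts in the combination and 3 in the saline group (ratio 87.4, interval 29.4 to 428). The Nrtn counts came largely from combination replicate 1, with 10.8, 0.333, 0.869, 0.789 and 0.773 CPM in the 5 libraries, and the ratio without it was 29.3 (interval 9.43 to 147). Cd200r2, Bmp8a and Gdf15, a stress-induced cytokine, were higher by 8.22, 7.54 and 6.59 on the log2 scale (adjusted p = 1.32e-10, 3.37e-07 and 6.95e-07), Gdf15 with 5.89 (adjusted p = 3.24e-06) without combination replicate 1. Orm2, Il17a and Saa3, above, and BC018473, a transcript whose values across groups are given further on, complete the 12.

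Lower in combination lungs were 12 genes, of which 4 changed with saline replicate 3. Car12, a carbonic anhydrase, had 0.28, 0.266, 0.366, 0.182 and 0 CPM in combination lungs and 0.432, 0.881, 26.5, 0.583 and 0.561 CPM in saline lungs (log2 fold change -4.65 ± 1.07 SE, adjusted p = 0.00112) and was -1.42 (adjusted p = 0.161) without that library. Sbsn, an epidermal secreted protein, was -3.42 (adjusted p = 0.000827) and -0.86 (adjusted p = 0.172) without it. Cers3, the ceramide synthase of skin barrier lipids, and Gsta2, a glutathione transferase, were -4.43 and -4.37, against -2.36 (adjusted p = 0.00425) and -3.49 (adjusted p = 0.00187) without it. Without combination replicate 8 Gsta2 was -5.05 (adjusted p = 0.0004). The others did not rest on saline replicate 3. Cd300e, a receptor of monocytes, had 0.373, 1.13, 1.14, 1.94 and 0.541 CPM in combination lungs against 25, 9.92, 7.46, 5.87 and 26.7 CPM in saline lungs. Cd300e had a log2 fold change of -3.83 ± 0.65 SE (adjusted p = 3.23e-05). Adgre4, another monocyte receptor, had 1.3, 3.53, 2.56, 4.67 and 1.86 CPM in combination lungs against 55.5, 18.5, 19.4, 14.8 and 65 CPM in saline lungs. Adgre4 had a log2 fold change of -3.63 ± 0.57 SE (adjusted p = 9.67e-06). The AMPA receptor subunit Gria1 had 0.466, 3.0, 2.56, 0.607 and 0.696 CPM in combination lungs and 19.1, 23.9, 17.6, 26.2 and 22.5 CPM in saline lungs. Gria1 had a log2 fold change of -3.87 ± 0.76 SE (adjusted p = 0.000239). The cystatin Cst8, the asialoglycoprotein receptor Asgr1, H60c, a ligand of the NK receptor NKG2D, Heatr9 and Pkhd1l1 were lower, with log2 fold changes of -4.14, -4.14, -3.85, -4.48 and -3.36 (adjusted p = 0.000105, 0.000102, 0.000291, 9.48e-05 and 0.000244). Without combination replicate 2 Heatr9 was -5.87 (adjusted p = 3.1e-05). All 12 were lower in isotype than in saline lungs as well, and none of them passed between combination and isotype over all libraries. Heatr9 did without combination replicate 2 (-2.96, adjusted p = 0.0288) and Pkhd1l1 without replicate 3 (-1.72, adjusted p = 0.0441). Msx3, a homeobox gene, had 7 counts in the combination group and 0 in the saline group, against 0.467 to 4.64 CPM (median 1.59) in isotype lungs, and was lower than in isotype (log2 -4.53, 95% interval -5.92 to -3.15, adjusted p = 0.000767).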

How the data were processed

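Lungs were lysed in TRIzol and RNA was prepared from them with DNase treatment, per the labels' protocols. Strand-specific libraries of polyadenylated RNA were made from 500 ng with 12 PCR cycles and sequenced as single reads of 33 cycles. The authors made and deposited 1 column of estimated counts per library, not scaled to library size, without pooling. Of these values 77.0% of those above 0 were whole within 1e-06. The build was mm10 per the submitters' processing notes. The aligner, the counter and whether counting used strand are unstated in the sources read here, so antisense overlaps and near-identical copies (Chil3 and Chil4, Orm1 and Orm2, Clca3b, Saa3) are uncertain.

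Counts were rounded and fitted with edgeR 4.0.16 (R 4.3.3; TMM, filterByExpr, robust quasi-likelihood) over all 43 libraries with 1 mean per group, and p-values were Benjamini-Hochberg adjusted over 15979 genes. Of 24475 gene IDs, 24375 had a symbol. On simulated data with 15869 genes for combination against saline, 80% of 4-fold and 29% of 2-fold changes were recovered, with 10 false calls. The simulated libraries had no GC slope, no RNA of other tissues and no other difference between groups. These numbers therefore do not give the error rate of the real comparison. Totals were 11.9 to 26.7 M counts (1e+06). Nothing in the labels says more of how replicates were drawn than that they are separate samples, so p-values measure the spread between these samples. Counting intervals and floors cover counting error only. The GC slope was taken over tested genes with a transcript GC content, and RefSeq tables gave promoters and gene names.

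The gene lists (33, with 399 genes), the named genes and the members were chosen with earlier results of these data known. Genes were named by 3 routes: a preset gene list, up to 4 passing members per gene list and direction, and, in each direction, at most 12 genes of largest change among those of at least 1 CPM, without overlap and called with and without the GC slope, leaving out predicted gene models and receptor segments. Agr2, Slc26a4, Pigr and Cxcl2 were added after their values were seen. Alternatives were DESeq2 1.42.0 (test or size factors), limma 3.58.1 voom with sample weights, upper-quartile factors and other count filters (none, or 10 counts in 5 libraries). Further alternatives were only the groups compared, the replicate block, GC corrections and leaving out libraries.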

Additional observations from a re-analysis of the deposited data

Results flagged for a closer look

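In 33 of 351 groups of values, 1 library stood apart from the rest of its group by more than Dixon's 95% critical value; chance gives about 1 in 20. Saline replicate 3 had 10 of these and combination replicate 2 had 5. What sets the libraries apart was not tested.

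Combination replicate 1 lay above the other libraries of its group for Nrtn at 10.8 CPM against 0.333 to 0.869 CPM. It lay below them for Gpnmb at 499.7 CPM against 823 to 990.3 CPM and H60c at 0 CPM against 0.121 to 0.1998 CPM. Combination replicate 2 lay above the other libraries of its group for Ccl3 at 51.3 CPM against 11.3 to 16.1 CPM and Clca3b at 25.4 CPM against 2.71 to 4.66 CPM. It lay below them for Ccl8 at 4.93 CPM against 20.8 to 33.5 CPM, Ccl6 at 1755 CPM against 3221 to 3809.7 CPM and Mzb1 at 12.1 CPM against 71.6 to 112 CPM. Combination replicate 3 lay below the other libraries of its group for Msx3 at 0 CPM against 0.0932 to 0.155 CPM. Combination replicate 5 lay below the other libraries of its group for Npy at 4.49 CPM against 12.99 to 19.1 CPM. Combination replicate 8 lay below the other libraries of its group for Car12 at 0 CPM against 0.182 to 0.366 CPM.

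Isotype replicate 2 lay below the other libraries of its group for Ccl12 at 0.780 CPM against 2.07 to 4.03 CPM. Isotype replicate 4 lay above the other libraries of its group for Cd74 at 4321 CPM against 2144 to 2855 CPM. Isotype replicate 8 lay above the other libraries of its group for Gsta2 at 0.284 CPM against 0 to 0.0575 CPM. Isotype replicate 9 lay above the other libraries of its group for Hopx at 173 CPM against 70.1 to 89.5 CPM and Gria1 at 5.28 CPM against 0.173 to 0.726 CPM. It lay below them for Eln at 245 CPM against 479 to 711 CPM and Ptgir at 28.9 CPM against 54.6 to 70.3 CPM.

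Saline replicate 1 lay above the other libraries of its group for Cxcl5 at 1.58 CPM against 0.156 to 0.275 CPM and Hpgds at 6.19 CPM against 2.87 to 3.45 CPM. It lay below them for Ccl5 at 13.3 CPM against 44.8 to 67.3 CPM. Saline replicate 3 lay above the other libraries of its group for Ccl11 at 8.57 CPM against 0.992 to 1.78 CPM, Arg1 at 14.6 CPM against 1.43 to 1.78 CPM and Chil4 at 25.8 CPM against 0.0991 to 0.583 CPM. It lay above them for H2-Ab1 at 416 CPM against 245 to 259 CPM, Car12 at 26.5 CPM against 0.432 to 0.881 CPM and Cers3 at 17.3 CPM against 0.693 to 1.32 CPM. It lay above them for Gsta2 at 11.8 CPM against 1.92 to 2.64 CPM and Sbsn at 271 CPM against 9.84 to 11.4 CPM. It lay below them for Ccn2 at 38.2 CPM against 61.1 to 73.3 CPM and Akap5 at 229 CPM against 505 to 676 CPM. Saline replicate 5 lay below the other libraries of its group for Gdf15 at 0 CPM against 0.156 to 0.288 CPM and Napsa at 153 CPM against 238 to 264 CPM.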

How the results depend on the processing

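DESeq2, its size factors, upper-quartile factors, both count filters and the GC and length offsets kept the numbers of genes called between combination and saline within 1.5 times. With the GC slope as a covariate 1853 genes were higher and 1863 lower in combination than in saline; without libraries of slope above 0.75 these were 1622 and 985, and without saline replicate 3 as well 1693 and 1234. limma voom with sample weights, named voom below, called 5560 lower, and fitting only the groups compared called 1660 lower. Leaving out 1 library gave 2953 to 5005 higher and 1901 to 5013 lower. Combination replicate 1 set the low ends, and replicate 2 the high ends; without replicate 8, 2036 were lower. Isotype against saline gave 4050 calls, and 10516 with voom, 8078 with only the groups compared, 7916 without the steep libraries and 8111 without saline replicate 3 as well. Combination against isotype gave 3029 calls, and 9261, 1824, 489 and 663 under these settings in that order. Leaving out 1 library gave 207 to 7899: 207 without combination replicate 1, 468 without replicate 8, 4883 without replicate 3 and 7899 without replicate 2. Mite for 19 weeks without antibody against saline gave 5562 calls, and 10323 with voom, 8783 without the steep libraries and 9246 without saline replicate 3 as well. Fewer libraries or groups enter several of these fits; beyond that the cause was not tested. The GC slope difference was 0.997 over the 5000 genes with the highest mean (exact permutation test, p = 0.0794).

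The replicate numbers did not pair the libraries: same-numbered combination and saline libraries deviated from their group means with correlations of -0.297, 0.185, -0.312 and -0.006. The replicate block gave 3675 genes higher and 3010 lower in combination than in saline, and 551 calls between combination and isotype. Over 116 named genes and all alternatives, 2450 values kept their side of the threshold, 74 no longer passed and 18 newly passed. With voom and its sample weights, 2 values changed sign that passed either there or in the main edgeR fit. These were Il33 at -1.18 (adjusted p = 0.00975) and Il5 at -0.42 (adjusted p = 0.766). Sign changes of values that passed in neither fit were left among the 2450. Examples were Il33 at -0.70 without combination replicate 2 and Chil4 at -0.43 without combination replicate 8. Genes of few reads, such as Il13, Il5 and Il13ra2, are limited by depth.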

Other observations

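BC018473, one of the 12 genes with the largest rise over saline, was uneven among the mite groups. It had 6.26 to 26.3 CPM (median 7.92) in combination lungs and passed 1 CPM in 5 of 5, while 0 of 7 isotype and 0 of 5 saline lungs passed 1 CPM. In mite-exposed lungs without antibody 3 of 6 passed it at 11 weeks and 3 of 7 at 19 weeks. So did 2 of 6 lungs given anti-IL-33 plus isotype and 5 of 7 given anti-IL-4Ra plus isotype. Ear6, an eosinophil-associated ribonuclease chosen after its values were seen, ranged from 0.0773 to 60.8 CPM in combination lungs, 0 to 9.38 CPM in isotype lungs and 0 to 0.288 CPM in saline lungs.

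The single-antibody groups put other genes in place. Orm2 had a median of 50.6 CPM in combination lungs, 7.61 CPM with anti-IL-33 plus isotype and 10.4 CPM with anti-IL-4Ra plus isotype. Its median was 3.18 CPM in isotype lungs and 0.11 CPM in saline lungs. Fabp1, which isotype lungs nearly lacked, passed 1 CPM in 5 of 5 combination lungs. It did so in 3 of 6 with anti-IL-33 plus isotype, 1 of 7 with anti-IL-4Ra plus isotype, 0 of 7 isotype lungs and 5 of 5 saline lungs. Il17a passed 1 CPM in 3 of 5 combination lungs, 1 of 6 with anti-IL-33 plus isotype and 1 of 7 with anti-IL-4Ra plus isotype. It did so in 1 of 7 isotype lungs and 0 of 5 saline lungs. These differences between groups were not tested.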
